A study of Mus musculus with 14 samples.

Results

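Photoreceptors release glutamate from ribbon synapses, and the genes described here encode the ribbon, the release machinery, the synaptic vesicle and the contacts of that terminal. The set holds 46 of the 24421 genes in the RNA-seq table, listed by symbol and ordered here by role as 12 ribbon and active zone genes, 16 genes of the fusion machinery and its calcium sensors, 8 vesicle genes and 10 contact and scaffold genes. Photoreceptors were sorted by fluorescence from retinas of C57BL/6 mice 8 weeks old. Nrl-/- photoreceptors came from Nrl-eGFP;NrlKO mice, which lack the rod transcription factor NRL, and the labels call them blue cones. Green cones came from Opn1mw-GFP mice, in which the promoter of the green opsin gene drives the reporter. Rods came from Nrl-eGFP mice, in which the Nrl promoter drives the reporter. RNA-seq was made of Nrl-/- photoreceptors and rods with 3 libraries each, and ATAC-seq, in which a transposase marks accessible DNA, of Nrl-/- photoreceptors, green cones sorted a single time, green cones sorted again (double-sorted) and rods with 2 libraries each. Each library pooled retinas of several mice, mostly males, and the double-sorted green cones included a female in each pool. The labels call the libraries replicates, and no RNA of green cones was analysed here.

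The ribbon is a protein plate that holds vesicles close to the release site, so that a photoreceptor can release glutamate continuously in the dark. Its main component, RIBEYE, is made from an alternative start of Ctbp2. Bassoon, Piccolo, RIM and ELKS proteins (Bsn, Pclo, Rims1, Rims2, Erc1 and Erc2) attach the ribbon and organise the active zone, SNARE proteins fuse the vesicle with the membrane, complexins clamp and promote that fusion, and synaptotagmins include its calcium sensors. Rod terminals are small spherules and cone terminals are large pedicles with many ribbons.

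Reads in genes summed to between 18376770 and 26312895 per RNA library and reads in elements to between 1062403 and 5770075 per ATAC library, with the double-sorted green cones lowest. Values below are CPM, in which a count is set against the depth of its library after the TMM scaling of edgeR. The targeted gene Nrl had 34.5, 39.3 and 24.6 CPM in Nrl-/- photoreceptors, against 599, 845 and 745 CPM in rods (log2 fold change −4.48, standard error 0.20), and reads per gene do not say which exons they came from. The cone opsin Opn1sw averaged 62889 CPM in Nrl-/- photoreceptors and 385 CPM in rods. Markers of other retinal cells also differed. The 18 bipolar markers summed to between 1775 and 1984 CPM in Nrl-/- libraries, against 99.5 to 149 CPM in rod libraries, with 7 higher and 1 lower past the test, and Cabp5, Car8 and Lrtm1 made up most of the sum. The bipolar genes Grm6 and Trpm1 averaged 6.37 and 14.01 CPM in Nrl-/- photoreceptors, against 3.51 and 7.13 CPM in rods, and Prkca averaged 8.41 CPM, against 52.6 CPM in rods. The 11 Müller glia markers summed to between 734 and 893 CPM in Nrl-/- libraries and 116 to 188 CPM in rod libraries, mostly Clu and Apoe. Only these 2 were called higher and none lower. The median log2 fold change of the 11 was −0.35, with 5 positive and 6 negative. In a test against no change, 2 of them were higher and 4 lower. The 6 horizontal cell markers summed to between 120 and 123 CPM in Nrl-/- libraries and 52.4 to 75.2 CPM in rod libraries, mostly Sept4. The 10 microglia markers summed to between 26.4 and 59.1 CPM in Nrl-/- libraries and 4.76 to 7.96 CPM in rod libraries. The 14 amacrine markers were at 71.7 to 84.5 CPM in Nrl-/- libraries and 110 to 129 CPM in rod libraries, of which Slc6a9 averaged 76.1 CPM in Nrl-/- photoreceptors and 117 CPM in rods, with Slc32a1, Tfap2c, Chat, C1ql2 and Slc18a3 at 0 in all 6. Bipolar and amacrine cells use many of the same release genes, and the part of other cells in the results below was not tested. By the study's sample list, RNA integrity was lower in the rod RNA, and its part was not tested either.

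RNA of 9 members was higher in Nrl-/- photoreceptors than in rods, RNA of 1 was lower and 29 did not pass, at an adjusted p under 0.05 in a test that the log2 fold change exceeds 1 in size. The other 7 fell below the filter on low counts and are given further on. Over all 12327 genes tested, 13.3% were called higher and 6.88% lower, which is also the background for the counts by role below. The higher members were Cplx2, Nrxn3, Elfn2, Cplx3, Syt11, Sv2a, Rab3a, Syp and Syt1, and the lower member was Rims2. The median log2 fold change of the 39 tested members was 0.84, against −0.0080 over all genes tested. In a test against no change at all, 23 members were higher and 7 lower, with 31.4% and 29.5% over all genes. Libraries of the groups did not overlap in 23 members that were higher and 8 that were lower in Nrl-/- photoreceptors, a pattern found in 33.8% and 33.2% of all genes tested. In sorted bulk samples, more RNA per cell and a larger share of cells with that RNA cannot be told apart.

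**Figure D1:**
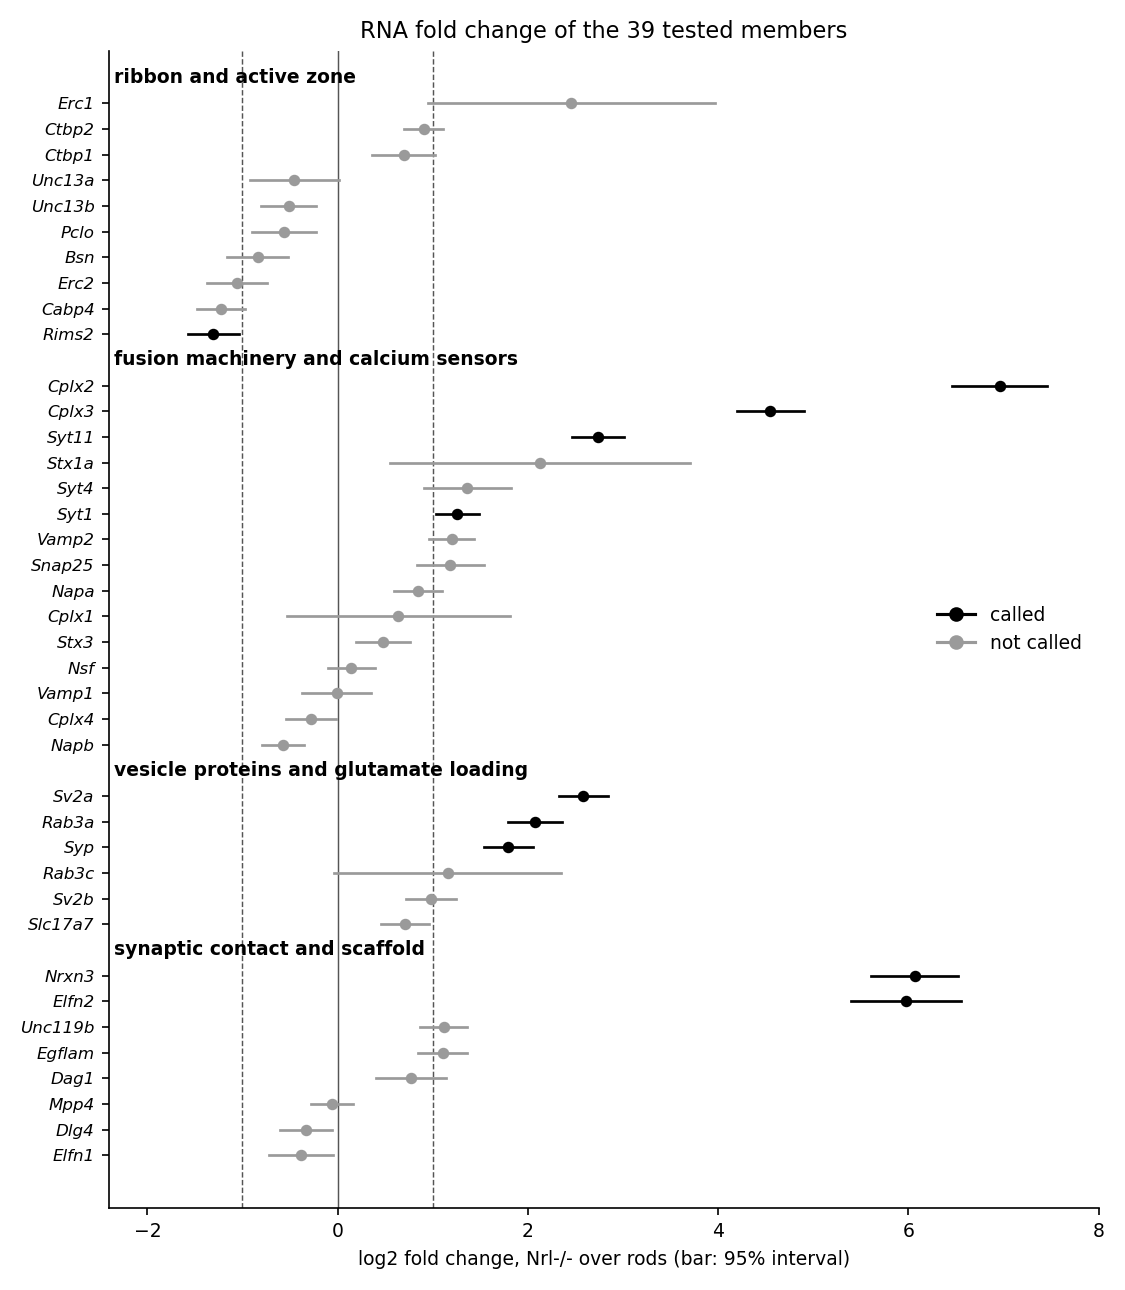
Log2 fold change of RNA in Nrl-/- photoreceptors over rods (horizontal axis) for each of the 39 tested members, grouped by role, with 95% intervals as bars and dashed lines at −1 and 1. Black marks the 10 called members; the vesicle genes all lie to the right of 0 and 7 of the 10 tested ribbon and active zone genes to the left.

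The largest fold change of the 39 tested members was that of a complexin. Cplx2, a complexin of conventional synapses, had 102, 124 and 84.7 CPM in Nrl-/- photoreceptors, against 0.860, 0.470 and 1.17 CPM in rods. Every Nrl-/- library was far above every rod library, with a log2 fold change of 6.96 (SE 0.25, adjusted p = 1.05e-09), or 124-fold. Cplx3, a complexin of retinal ribbon synapses, had 1123, 1361 and 1452 CPM in Nrl-/- photoreceptors, against 44.5, 63.3 and 60.3 CPM in rods. This was a log2 fold change of 4.55 (SE 0.18, adjusted p = 2.47e-09), or 23.4-fold, again without overlap. Cplx4, the other ribbon complexin, was the most abundant member per length of exon in both groups. By CPM it led its role in rods and over all 6 libraries, while Snap25 was higher in Nrl-/- photoreceptors. It had 2804, 3234 and 2849 CPM in Nrl-/- photoreceptors, against 3240, 4002 and 3532 CPM in rods, a log2 fold change of −0.28 with a 95% interval of −0.54 to −0.02, and was not called. Cplx1, the fourth complexin, was near 1 CPM in both groups, between 0.624 and 3.26 CPM in Nrl-/- photoreceptors and between 0.887 and 1.11 CPM in rods, and was not called.

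Scaled by exon length, the complexins together came to 2165 ± 167 CPM per kb in Nrl-/- photoreceptors and 2065 ± 222 CPM per kb in rods (SD, n = 3 each), a difference within the spread of the libraries. Their makeup differed. Cplx3 took 19.6%, 20.3% and 23.7% of this sum in Nrl-/- photoreceptors, against 0.837%, 0.962% and 1.04% in rods. Cplx4 took 79.5%, 78.7% and 75.6% in Nrl-/- photoreceptors, against 99.1%, 99.0% and 98.9% in rods. Cplx2, although it had the largest fold change, took 0.826 ± 0.13% in Nrl-/- photoreceptors and 0.00716 ± 0.0033% in rods.

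**Figure D2:**
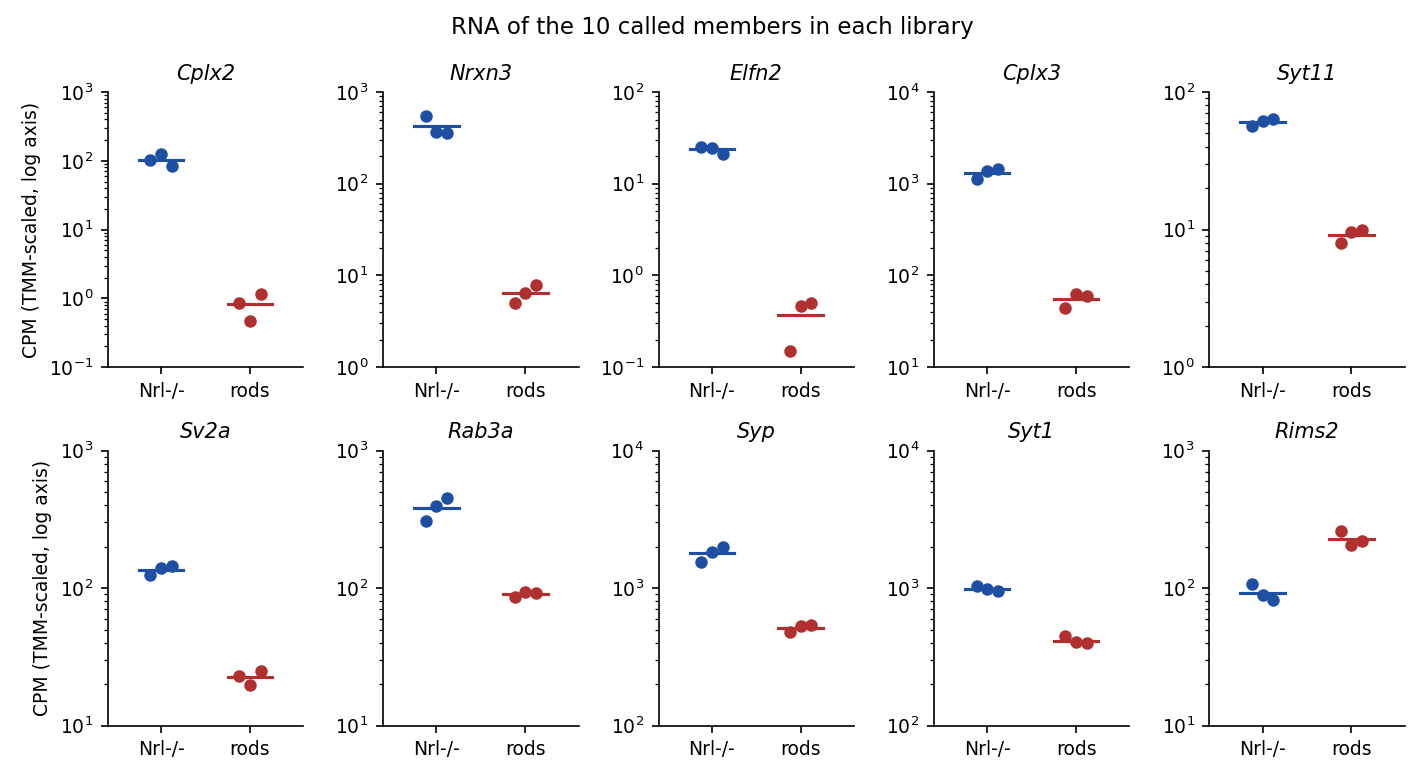
RNA of the 10 called members in each library, in TMM-scaled CPM on a log axis, with Nrl-/- photoreceptors at the left and rods at the right of each panel; points are libraries and bars group means. The groups do not overlap in any panel, and Rims2 is the panel in which rods are higher.

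Both called complexin genes had chromatin that was more open in cones. An element is a 200 bp window around an ATAC-seq peak summit of the authors, given to the gene with the nearest RefSeq start, and it was called at an adjusted p under 0.1 between cones (Nrl-/- photoreceptors with double-sorted green cones) and rods, against a log2 fold change of 1. Of 18 elements nearest to Cplx2 on chromosome 13, 13 were more open in cones and none less. An intronic element 23467 bp downstream of a start site had 21.5 and 30.6 CPM in Nrl-/- photoreceptors, 10.1 and 18.9 CPM in double-sorted green cones, against 0 and 0.377 CPM in rods (log2 fold change 6.47, SE 0.78, adjusted p = 0.000565). Another, 911 bp downstream of a start, had 19.5 and 13.2 CPM in Nrl-/- photoreceptors, 12.4 and 9.88 CPM in double-sorted green cones, against 0.417 and 0 CPM in rods (log2 fold change 5.88, SE 0.77, adjusted p = 0.000886). In the rod libraries 3 counts correspond to 0.625 and 0.565 CPM, so these rod values lie under that floor and the fold changes depend on the model. Cplx3 on chromosome 9 had 4 elements, of which 1 was called. It lies 6884 bp downstream of the start, past the end of the gene, and had 16.97 and 20.7 CPM in Nrl-/- photoreceptors, 19.4 and 17.1 CPM in double-sorted green cones, against 1.04 and 0.941 CPM in rods (log2 fold change 4.18, SE 0.45, adjusted p = 0.000412). The promoter element of Cplx3 was open in all groups, with 29.4 and 33.8 CPM in Nrl-/- photoreceptors, 13.2 and 14.4 CPM in double-sorted green cones, against 24.4 and 29.9 CPM in rods, and was not called.

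The sequences of these 3 elements are shown because they had the lowest adjusted p at the called complexins. They are reference sequence of GRCm38 from RefSeq, 5′ to 3′ on the strand of the gene, with matches on either strand to any of 7 motifs in capitals. These were CTAATCC of homeodomain factors such as CRX, CTAAGCC as a variant of it, TGCTGAC of MAF factors such as NRL, AGGTCA of nuclear receptors, TGANTCA of bZIP factors, TAATTA of other homeodomain factors and CATATG of bHLH factors. Overlaps between motifs were allowed, and none occurred in the sequences printed. AGGTCA matched in the Cplx3 element and in 14.9% of all 53204 elements, and no motif matched in the Cplx2 elements.
Cplx2 intron, chr13:54325924-54326123, plus strand: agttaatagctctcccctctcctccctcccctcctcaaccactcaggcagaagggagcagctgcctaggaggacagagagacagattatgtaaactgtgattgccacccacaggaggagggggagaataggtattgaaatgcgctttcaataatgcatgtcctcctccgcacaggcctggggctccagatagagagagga
Cplx2 intron, chr13:54303368-54303567, plus strand: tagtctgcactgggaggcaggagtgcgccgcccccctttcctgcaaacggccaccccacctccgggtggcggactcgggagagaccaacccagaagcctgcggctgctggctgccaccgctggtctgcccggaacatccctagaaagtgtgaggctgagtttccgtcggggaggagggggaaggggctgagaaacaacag
Cplx3 downstream, chr9:57599298-57599497, minus strand: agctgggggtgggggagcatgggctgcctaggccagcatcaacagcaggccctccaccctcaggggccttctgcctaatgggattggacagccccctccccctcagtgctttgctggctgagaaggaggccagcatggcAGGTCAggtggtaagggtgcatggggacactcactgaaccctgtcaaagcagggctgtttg

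Among the other genes of the fusion machinery, RNA was higher for Syt11 and Syt1. Syt11, a synaptotagmin that does not bind calcium, had 56.9, 61.2 and 64.0 CPM in Nrl-/- photoreceptors, against 7.95, 9.55 and 9.85 CPM in rods, a log2 fold change of 2.74 (SE 0.14, adjusted p = 1.57e-07). Syt1, the calcium sensor of fast release, had 1036, 987 and 953 CPM in Nrl-/- photoreceptors, against 445, 403 and 396 CPM in rods. The groups did not overlap, and the log2 fold change was 1.26 (SE 0.11, adjusted p = 0.0278). That call was lost without rod replicate 2 or 3 or Nrl-/- replicate 1 or 2 (adjusted p between 0.0591 and 0.116), and with DESeq2 (0.057) or without the filter (0.0604). Syt4 had a log2 fold change of 1.36 (95% interval 0.91 to 1.82, adjusted p = 0.0962) and was not called.

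The SNARE proteins and the proteins that take SNARE complexes apart were not called. Snap25, the plasma membrane SNARE that was most abundant per length, averaged 3871 ± 415 CPM in Nrl-/- photoreceptors and 1703 ± 416 CPM in rods (SD, n = 3 each), with a log2 fold change of 1.19 (95% interval 0.83 to 1.54, adjusted p = 0.217). Vamp2, the vesicle SNARE, had a log2 fold change of 1.20 (95% interval 0.96 to 1.44, adjusted p = 0.0839). Stx3, the syntaxin of ribbon synapses, had 0.47, with an interval of 0.19 to 0.76. Stx1a, the syntaxin of conventional synapses, stood at 0.50 CPM per kb of exon in Nrl-/- photoreceptors and 0.114 CPM per kb in rods, whereas Stx3 stood at 123 CPM per kb in Nrl-/- photoreceptors and 88.2 CPM per kb in rods. The log2 fold change of Stx1a was 2.13, with a wide interval of 0.55 to 3.71. The remaining log2 fold changes were −0.01 for the SNARE Vamp1, 0.15 for Nsf, the ATPase that separates SNARE complexes, and 0.84 and −0.57 for its adaptors Napa and Napb. Of the 15 tested genes in the role, 4 were called higher and none lower, with a median log2 fold change of 1.19.

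**Figure D3:**
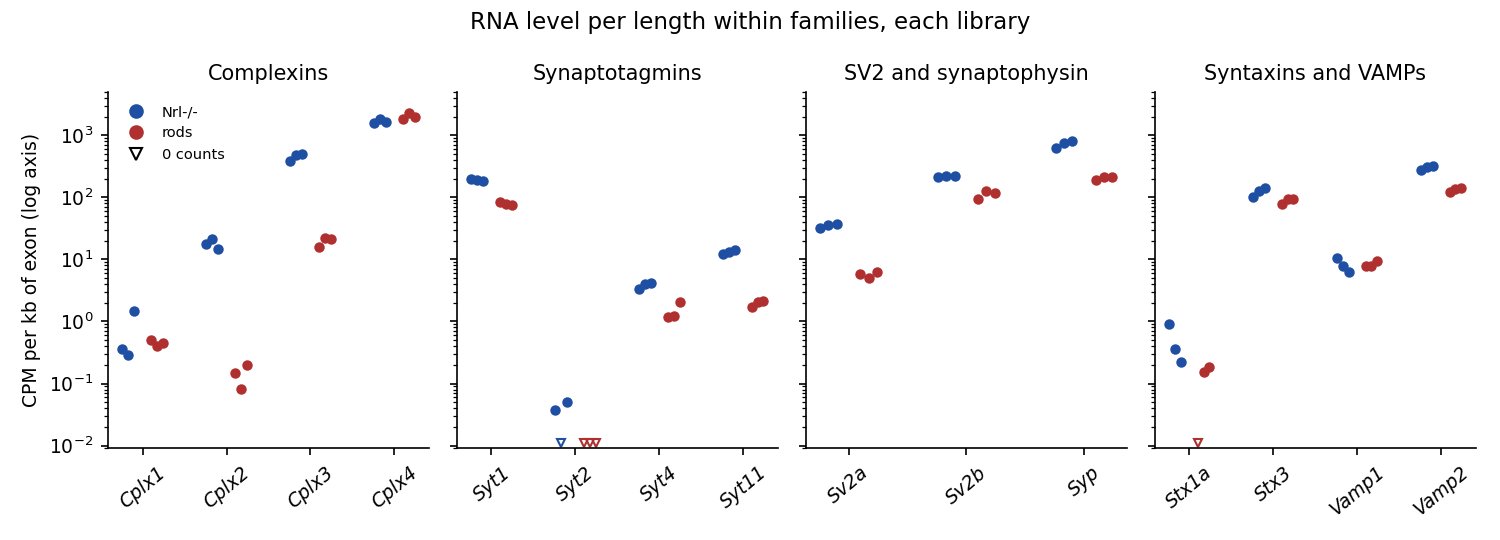
RNA per kb of exon (CPM per kb, log axis) of complexins, synaptotagmins, SV2 with synaptophysin, and syntaxins with VAMPs in each library, Nrl-/- photoreceptors at the left of each pair and rods at the right; open triangles mark libraries with 0 counts. Cplx3 averages 459 CPM per kb in Nrl-/- photoreceptors and 19.6 CPM per kb in rods, and Cplx4 averages 1687 CPM per kb in Nrl-/- photoreceptors and 2045 CPM per kb in rods.

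RNA of 3 of the 6 tested vesicle genes was higher in Nrl-/- photoreceptors and none was lower, with a median log2 fold change of 1.48. Sv2a, a glycoprotein of vesicles, had 124, 139 and 144 CPM in Nrl-/- photoreceptors, against 23.0, 19.8 and 25.04 CPM in rods, a log2 fold change of 2.58 (SE 0.13, adjusted p = 1.72e-07). Rab3a, the GTPase that ties vesicles to RIM proteins, had 306, 395 and 448 CPM in Nrl-/- photoreceptors, against 86.0, 94.2 and 92.4 CPM in rods, a log2 fold change of 2.08 (SE 0.15, adjusted p = 1.03e-05). Syp, which encodes the vesicle membrane protein synaptophysin, had 1557, 1840.2 and 1979.9 CPM in Nrl-/- photoreceptors, against 482, 534 and 536 CPM in rods, a log2 fold change of 1.79 (SE 0.13, adjusted p = 5.44e-05). In each of these 3 genes the lowest Nrl-/- library was above the highest rod library. Sv2b, the most abundant vesicle gene that was not called, had 1418, 1450 and 1467 CPM in Nrl-/- photoreceptors, against 609, 823 and 760.2 CPM in rods. Its groups did not overlap either, but the log2 fold change of 0.98 (95% interval 0.72 to 1.25) did not exceed the tested size. Sv2a took 13.5 ± 0.72% of the length-scaled RNA of both SV2 genes in Nrl-/- photoreceptors and 4.99 ± 1.0% in rods (SD, n = 3 each). Slc17a7, which encodes the vesicular glutamate transporter of photoreceptors, had a log2 fold change of 0.71 (95% interval 0.45 to 0.97). Rab3c, a relative of Rab3a, was at or under 2.09 CPM in every library, with a log2 fold change of 1.16 and an interval of −0.04 to 2.35.

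Ribbon and active zone genes had a median log2 fold change of −0.54 over 10 tested genes, with 1 called lower and none called higher. Ctbp2 was the leading member of the role by mean CPM over all 6 libraries, although Cabp4 was higher in rods, at 305 CPM. It had 549, 546 and 528 CPM in Nrl-/- photoreceptors, against 292, 294 and 281 CPM in rods. The groups were narrow and well apart, at 1.87-fold, but the log2 fold change of 0.90 (95% interval 0.70 to 1.11) was below the tested size. Its paralog Ctbp1 had a log2 fold change of 0.69 (95% interval 0.37 to 1.02). Ctbp2 took 93.6 ± 1.1% of the length-scaled RNA of both genes in Nrl-/- photoreceptors and 92.7 ± 0.38% in rods (SD, n = 3 each). Reads per gene do not separate the RIBEYE transcript from the transcripts of the nuclear corepressor CtBP2.

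Chromatin at Ctbp2 does separate the RIBEYE start from the start of the longest transcripts, since their promoter elements differ. RefSeq gives the gene 3 starts, and the remaining one, which lies between these, had no promoter element. RefSeq places the start of the RIBEYE transcript on chromosome 7 at 133015247, inside the gene, on the minus strand. An element centred 380 bp upstream of it was the most open of the 19 elements nearest to Ctbp2. It had 81.6 and 77.9 CPM in Nrl-/- photoreceptors, 57.5 and 79.1 CPM in double-sorted green cones, against 73.9 and 76.1 CPM in rods. The libraries overlapped, and the log2 fold change was −0.02 (SE 0.20), so that no difference was called. The other promoter elements, at the start of the longest transcripts, were not called and had log2 fold changes of 0.60 and −0.20. Between the start of the longest transcripts and the RIBEYE start, 5 intronic elements were more open in cones, and none of the 19 was less open. The strongest of these had 37.3 and 36.8 CPM in Nrl-/- photoreceptors, 46.6 and 40.4 CPM in double-sorted green cones, against 5.83 and 4.52 CPM in rods, with every cone library above both rod libraries (log2 fold change 2.94, SE 0.32, adjusted p = 0.000626). The element at the RIBEYE start is printed because it marks the start site of the ribbon transcript. The capitals mark CTAATCC, which is found in 7.61% of all elements.
Ctbp2, RIBEYE start, chr7:133015528-133015727, minus strand: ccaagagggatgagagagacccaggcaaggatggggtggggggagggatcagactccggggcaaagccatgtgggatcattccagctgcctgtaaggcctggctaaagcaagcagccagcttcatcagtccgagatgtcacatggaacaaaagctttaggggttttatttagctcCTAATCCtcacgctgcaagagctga

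Rims2, which encodes the RIM protein of photoreceptor active zones, was the member called lower. It had 107, 88.7 and 82.5 CPM in Nrl-/- photoreceptors, against 261, 204 and 222 CPM in rods. The groups did not overlap, with a log2 fold change of −1.31 (SE 0.14, adjusted p = 0.029). The call was lost with library totals (adjusted p = 0.0954), with DESeq2 (0.292) and without rod replicate 1 (0.126), Nrl-/- replicate 2 (0.0911) or Nrl-/- replicate 3 (0.0876), while the log2 fold change stayed between −1.43 and −1.21 in these and the other alternatives. Cabp4, a regulator of the photoreceptor calcium channel, was close behind with a log2 fold change of −1.23 (95% interval −1.48 to −0.97, adjusted p = 0.068). It was called in place of Rims2 without rod replicate 1 (0.0449) or Nrl-/- replicate 3 (0.0145), and with a replicate block it was called beside Rims2 (0.0489), while its adjusted p was between 0.0614 and 0.668 in the other alternatives against a log2 fold change of 1. Erc2 had −1.06 and Bsn −0.84, and Unc13b, Pclo and Unc13a, of which the Unc13 genes encode vesicle priming factors, had −0.52, −0.56 and −0.46. Of these 7 genes all but Unc13a passed the test against no change, with adjusted p between 6.77e-06 and 0.014. Erc1 was at or under 1.64 CPM in every library, with a log2 fold change of 2.46 and an interval of 0.95 to 3.97.

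Several of these genes have long transcripts, and RNA was primed from the poly(A) tail. Over all genes tested, the median log2 fold change fell with exon length, at 0.09 for genes up to 2 kb, 0.07 from 2 to 4 kb, −0.11 from 4 to 6 kb, −0.25 from 6 to 8 kb and −0.44 for the 681 genes over 8 kb. Bsn, Pclo and Unc13b, with 15937, 22100 and 14493 bases of exon, are in the longest bin, where the 6 tested members had a median of 0.32. The 95% interval of Bsn, −1.16 to −0.52, lies below the median of the bin. The values of Rims2 (7940 bases) and Erc2 (6256 bases) lie below the median of their bin, Cabp4 has 1433 bases, and Nrxn3, with 9444 bases, was among the genes that were higher. The part of transcript length in single genes was not tested.

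**Figure D4:**
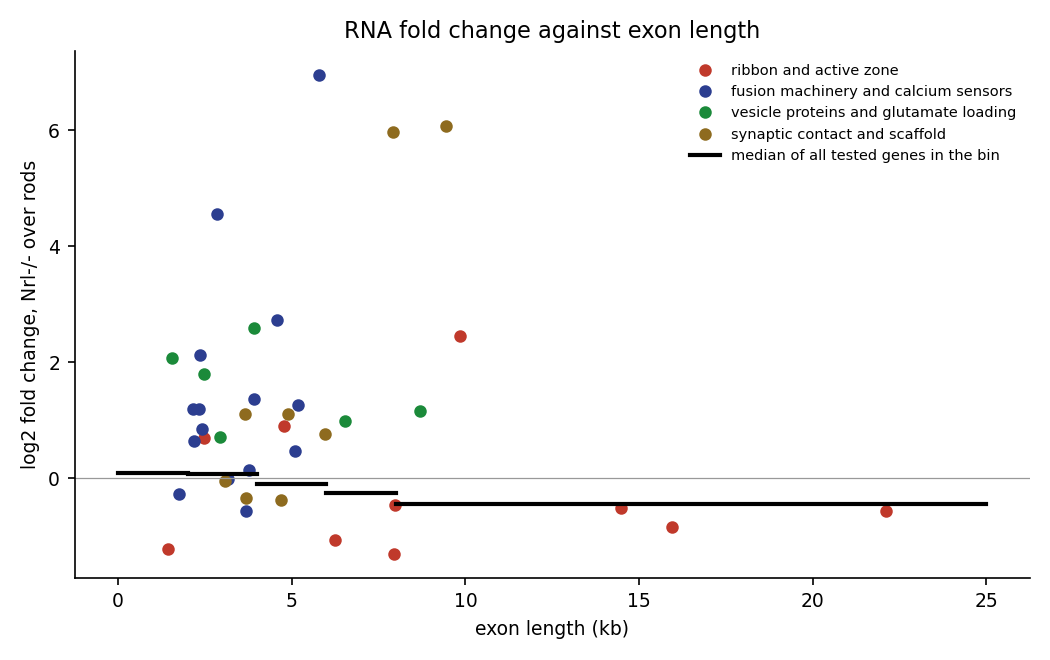
Log2 fold change of RNA in Nrl-/- photoreceptors over rods (vertical axis) against exon length in kb for the 39 tested members, coloured by role; black lines are medians of all tested genes in 5 length bins. The medians go down to −0.44 in the longest bin, where the 6 members have a median of 0.32, with Bsn, Pclo and Unc13b below the line and Erc1, Rab3c and Nrxn3 above it.

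Of the 8 tested contact and scaffold genes, 2 were higher and none lower, with a median log2 fold change of 0.94. Nrxn3, a neurexin that acts as a presynaptic adhesion protein, had 552, 369 and 360.4 CPM in Nrl-/- photoreceptors, against 4.96, 6.37 and 7.85 CPM in rods. This was a log2 fold change of 6.07 (SE 0.23, adjusted p = 1.57e-09), or 67.0-fold. Elfn2, which encodes an adhesion protein that binds metabotropic glutamate receptors across the synapse, had 25.2, 24.7 and 21.1 CPM in Nrl-/- photoreceptors, against 0.152, 0.470 and 0.501 CPM in rods. Its log2 fold change was 5.98 (SE 0.30, adjusted p = 2.05e-08), or 63.0-fold. Its relative Elfn1, the partner of the glutamate receptor of rod bipolar cells, overlapped between the groups, with a log2 fold change of −0.38 and an interval of −0.72 to −0.04. Mpp4, a membrane scaffold of photoreceptor terminals, was the most abundant gene of the role. It had 1702, 1717 and 1632 CPM in Nrl-/- photoreceptors, against 1750.1, 1816 and 1685 CPM in rods, and the groups overlapped with a log2 fold change of −0.06 (95% interval −0.28 to 0.17). Over part of its exons, reads could not be given to Mpp4 alone. The scaffold gene Dlg4 had −0.33, Dag1, which encodes dystroglycan, 0.77, and Egflam, which encodes its ligand pikachurin, 1.10 (95% interval 0.85 to 1.36). Unc119b, a relative of the photoreceptor protein UNC119, had 1.11 (95% interval 0.87 to 1.36).

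Cones were more open at 13 of the 18 elements nearest to Nrxn3 on chromosome 12 and less open at none. An intronic element 153140 bp downstream of a start had 22.8 and 18.4 CPM in Nrl-/- photoreceptors, 21.0 and 14.4 CPM in double-sorted green cones, against 0.833 and 1.51 CPM in rods (log2 fold change 3.98, SE 0.48, adjusted p = 0.000736). An element 85037 bp upstream of the gene had 13.3 and 9.99 CPM in Nrl-/- photoreceptors, 9.33 and 8.98 CPM in double-sorted green cones, against 0.417 and 0.377 CPM in rods (log2 fold change 4.59, SE 0.63, adjusted p = 0.00126). Both elements were low in each rod library. The rod values of the upstream element lie under the floor of 3 counts, so its fold change depends on the model. The 13 calls include an element far into the gene with 4.14 and 6.36 CPM in Nrl-/- photoreceptors and 0 CPM in both green cone libraries and both rod libraries, so that this call came from Nrl-/- photoreceptors alone. At Elfn2 on chromosome 15, cones had 2 elements that were more open, of 8. Its promoter element had 4.97 and 6.81 CPM in Nrl-/- photoreceptors, 6.996 and 7.19 CPM in double-sorted green cones, against 0.833 and 1.32 CPM in rods (log2 fold change 2.53, SE 0.66, adjusted p = 0.0476). The Nrxn3 sequences are shown, as above, because they had the lowest adjusted p at the gene. They hold none of the motifs.
Nrxn3 intron, chr12:89106431-89106630, plus strand: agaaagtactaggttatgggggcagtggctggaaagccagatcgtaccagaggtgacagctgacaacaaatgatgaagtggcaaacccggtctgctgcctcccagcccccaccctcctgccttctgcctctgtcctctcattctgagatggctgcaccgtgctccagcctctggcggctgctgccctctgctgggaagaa
Nrxn3 upstream, chr12:88709368-88709567, plus strand: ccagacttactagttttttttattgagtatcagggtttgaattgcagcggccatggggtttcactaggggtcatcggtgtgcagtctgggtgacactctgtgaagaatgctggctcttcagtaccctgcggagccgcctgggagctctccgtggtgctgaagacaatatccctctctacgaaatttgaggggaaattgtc

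The 7 members below the count filter had between 0 and 10 reads in any Nrl-/- library and between 0 and 6 reads in any rod library. They were Rims1, Rimbp2, which encodes a RIM-binding protein, Syt2, Slc17a8, which encodes a vesicular glutamate transporter, Rph3a, the effector rabphilin, Nrxn2 and Veph1. In an RNA library 3 counts correspond to between 0.112 and 0.167 CPM, and differences near this level were not detectable at this depth. Rph3a had 9 reads in each Nrl-/- library, against 3, 5 and 6 reads in the rod libraries. Rimbp2 had 1 read in Nrl-/- photoreceptors and 1 read in rods in all.

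Over the whole set, 279 elements were nearest to 43 members, and Rims1, Erc1 and Veph1 had none. Of 273 tested, 53 were more open in cones than in rods and 11 less open. These were 19.4% and 4.03%, against 18.1% and 3.98% over all elements, near the background by this assignment. Between Nrl-/- photoreceptors and rods, 62 of 271 were more open and 21 less open, against 21.0% and 6.38% over all elements. Elements within 50 kb of a member's start instead numbered 389, and a smaller share of them was more open. In cones 41 of these were more open and 14 less open, and in Nrl-/- photoreceptors 51 were more open and 28 less open. The counts rest on few libraries. Without rod replicate 1 or 2, 25 or 29 elements were more open in cones and 1 less open, and without Nrl-/- replicate 2, 37 were more open in Nrl-/- photoreceptors. Scaled to the processed reads of each library instead, 38 elements were more open and 25 less open in cones, and 42 were more open and 27 less open in Nrl-/- photoreceptors, while the median log2 fold change of all elements was −0.34 for cones and −0.51 for Nrl-/- photoreceptors, against 0.13 and 0.07 with TMM. Promoter elements, from 1000 bp upstream to 100 bp downstream of a start, were more open in cones in 5 of 53 cases and less open in 2, against 7.17% and 1.55% of all promoter elements.

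The elements were distributed unevenly over the members. The 9 members with higher RNA had 68 elements. Over all elements tested, 18.1% were more open and 3.98% less open in cones, and 21.0% and 6.38% in Nrl-/- photoreceptors. Of the 66 tested here, 30 were more open in cones and none less open. Between Nrl-/- photoreceptors and rods 38 were more open and none less open, or 24 and 1 without Nrl-/- replicate 2. With processed reads as library sizes, 21 were more open and 1 less open in cones, and 31 were more open and 2 less open in Nrl-/- photoreceptors. The 30 comprise 13 at Cplx2, 13 at Nrxn3, 2 at Elfn2, 1 at Cplx3 and 1 at Syt1, and 23 lie in introns, 6 between genes and 1 in an exon. Elements of the same gene are not independent of each other. Without rod replicate 1 or 2, 18 were called more open in each case. The 29 members that were not called had 177 elements. Of 174 tested, 12 were more open and 9 less open in cones, against 18.1% and 3.98% over all elements. These counts became 3 and 0 without rod replicate 1, 7 and 0 without rod replicate 2, 12 and 14 without double-sorted green cone replicate 4, 8 and 20 with processed reads as library sizes and 7 and 1 with DESeq2. Of the 10 promoter elements of the 9 higher members, only the element at Elfn2 was called, and Cplx2 and Nrxn3 had no promoter element. Just past the 100 bp limit, an exonic element 151 bp downstream of a Cplx2 start was more open in cones (log2 fold change 3.79, SE 0.64, adjusted p = 0.00438). One promoter element of Rab3a had 131 and 111 CPM in Nrl-/- photoreceptors, 70.7 and 118 CPM in double-sorted green cones, against 175 and 188 CPM in rods. The other one had 11.6 and 8.63 CPM in Nrl-/- photoreceptors, 3.11 and 11.7 CPM in double-sorted green cones, against 15.8 and 16.4 CPM in rods. Those of Syt11, Syp, Sv2a and Syt1 had log2 fold changes between −0.98 and 0.12.

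**Figure D5:**
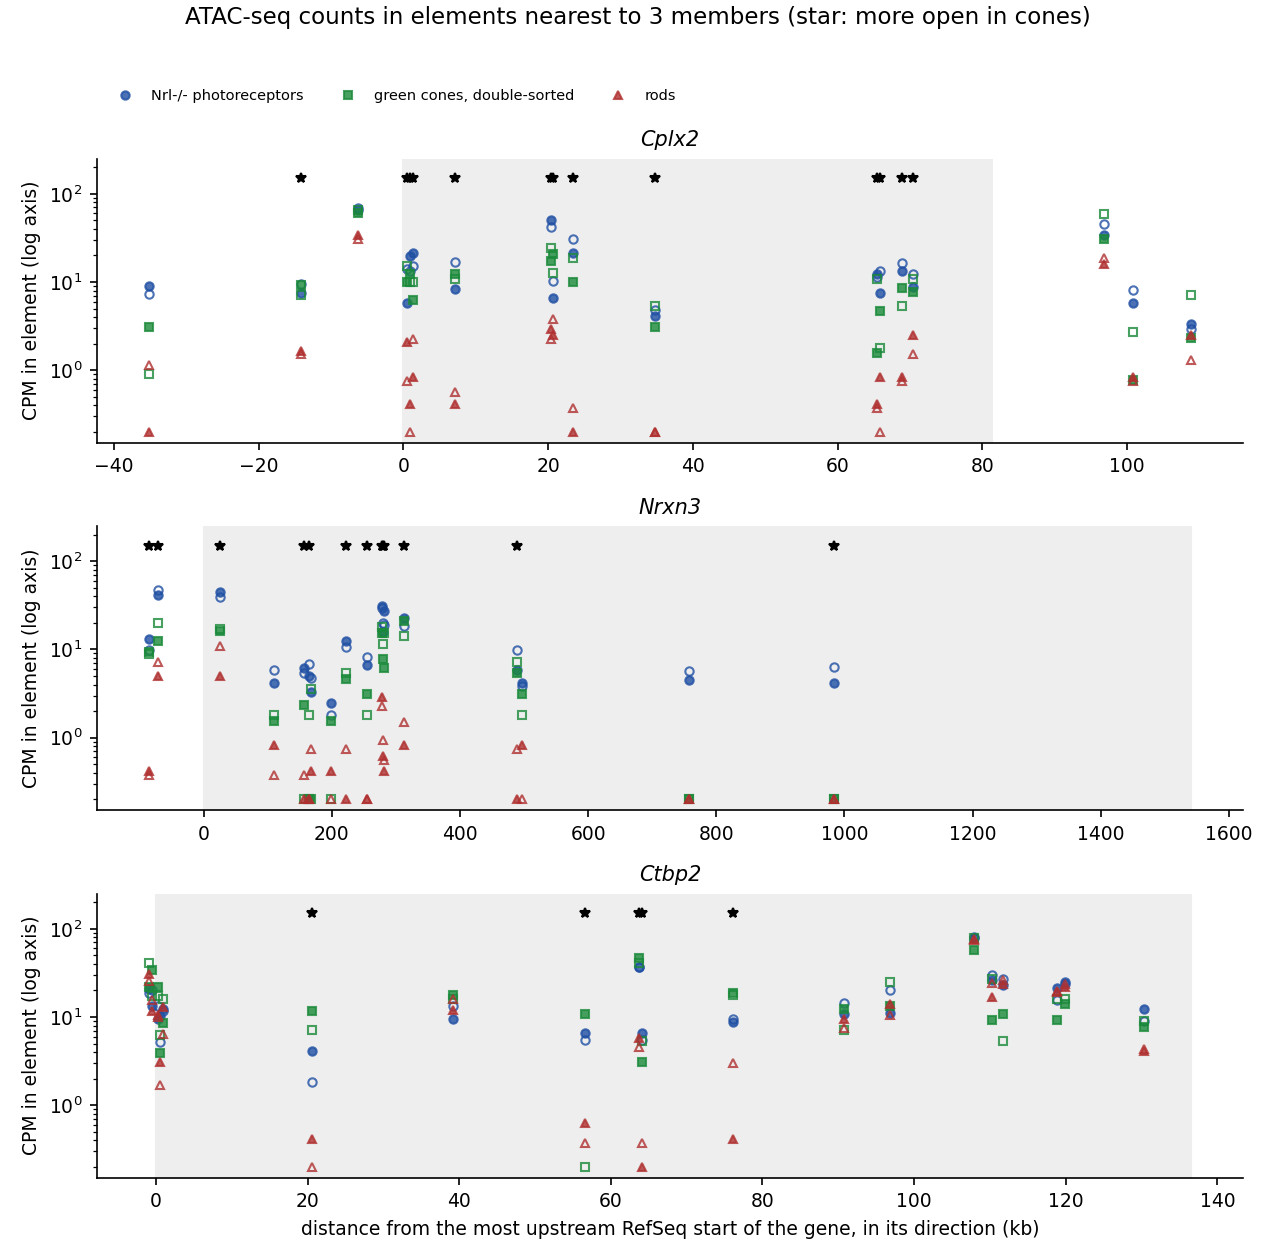
ATAC-seq counts (CPM, log axis) in each element nearest to Cplx2, Nrxn3 and Ctbp2 against the distance in kb from the most upstream start, in the direction of the gene, with the gene shaded. Filled and open symbols are the 2 libraries of Nrl-/- photoreceptors, double-sorted green cones and rods, values under 0.2 are drawn at 0.2, and stars mark elements more open in cones (13, 13 and 5).

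At Rims2, with lower RNA, 1 element was more open in cones and 1 less open, of 18. The less open element, in an intron, had 0 and 1.82 CPM in Nrl-/- photoreceptors, 0 and 3.59 CPM in double-sorted green cones, against 14.2 and 9.41 CPM in rods (log2 fold change −3.18, SE 0.81, adjusted p = 0.0372). The more open element, 10043 bp upstream of the gene, had 5.80 and 3.63 CPM in Nrl-/- photoreceptors, 9.33 and 5.39 CPM in double-sorted green cones, against 0 counts in both rod libraries (adjusted p = 0.00517). Its promoter elements were not called, with log2 fold changes of 1.16 and −0.02.

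Some members whose RNA was not called, or too low to test, had called elements. The promoter element of Rab3c had 72.0 and 67.2 CPM in Nrl-/- photoreceptors, 122 and 73.7 CPM in double-sorted green cones, against 8.75 and 7.53 CPM in rods (log2 fold change 3.34, SE 0.33, adjusted p = 0.000313). The promoter element of Stx1a had 16.1 and 17.7 CPM in Nrl-/- photoreceptors, 10.9 and 8.98 CPM in double-sorted green cones, against 1.67 and 2.26 CPM in rods (log2 fold change 2.79, SE 0.49, adjusted p = 0.00818). RNA of both genes was low, with means of 1.36 CPM (Rab3c) and 1.18 CPM (Stx1a) in Nrl-/- photoreceptors, against 0.613 CPM and 0.270 CPM in rods. More open in cones were 6 of the 7 elements at Rimbp2 and all 3 at Rph3a. Between Nrl-/- photoreceptors alone and rods, 6 were more open at Rimbp2 but only 1 at Rph3a. In the opposite direction, the promoter element of Egflam had 27.7 and 24.3 CPM in Nrl-/- photoreceptors, 41.2 and 24.3 CPM in double-sorted green cones, against 80.6 and 77.9 CPM in rods (log2 fold change −1.46, SE 0.25, adjusted p = 0.0689). At Slc17a7 and at Stx3, 2 elements each were less open in cones, with log2 fold changes between −1.92 and −1.67, whereas the RNA of Egflam, Slc17a7 and Stx3 had positive log2 fold changes. These elements were chosen for description after their values were seen.

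Other genes of the same pathways were listed by role. Over all genes tested, 13.3% were called higher and 6.88% lower, and whether the lists differ from these shares was not tested. Of 41 tested genes of the release machinery outside the set, 8 were higher and 4 lower in Nrl-/- photoreceptors, with a median log2 fold change of 0.56. The priming factor Cadps2 averaged 8.36 ± 0.40 CPM in Nrl-/- photoreceptors and 0.0185 ± 0.032 CPM in rods, which is under the floor of 3 counts. Rab27b, a GTPase of vesicle trafficking, had a log2 fold change of 6.53 (SE 0.21), Syt12 4.55 (SE 0.68) and the liprin gene Ppfia2 2.27 (SE 0.13). Syt12 averaged 1.78 CPM in Nrl-/- photoreceptors and 0.0725 CPM in rods, the latter also under that floor. Of 19 other vesicle genes, 6 were higher and 1 lower, with a median of 0.83. Sv2c, the third SV2 gene, had 0 counts in every Nrl-/- library and 4.93 ± 2.3 CPM in rods. The synapsins Syn1 and Syn3 had log2 fold changes of 4.90 (SE 0.35) and 1.81 (SE 0.26), and the synaptogyrin Syngr3 3.76 (SE 0.17).

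Of 29 endocytosis genes, 2 were higher and 2 lower, with a median of 0.0044. The shares over all genes, here and for the lists that follow, were 13.3% and 6.88%. The called endocytosis genes were Cltb, a clathrin light chain, at 7.53 (SE 0.28), Pacsin1 at 1.87 (SE 0.11), Itsn2 at −2.10 (SE 0.14) and Ap2a2 at −1.65 (SE 0.11). Of 11 genes of the presynaptic calcium channel complex, 4 were higher and 1 lower, with a median of 0.70. Cabp5, which is also in the list of bipolar markers, averaged 1402 ± 100.3 CPM in Nrl-/- photoreceptors and 14.2 ± 3.7 CPM in rods, a log2 fold change of 6.63 (SE 0.20). Cabp1 had 4.78 (SE 0.47), Cacnb1 2.81 (SE 0.61) and Cacna2d1 2.67 (SE 0.54). These genes were low in rods, at means of 0.565, 0.229 and 0.280 CPM. In Nrl-/- photoreceptors Cabp1 averaged 15.7 CPM, Cacnb1 1.63 CPM and Cacna2d1 1.82 CPM. The gene called lower, Cacnb2, averaged 12.3 CPM in Nrl-/- photoreceptors and 50.1 CPM in rods, a log2 fold change of −2.02 (SE 0.16). Of 34 other contact and scaffold genes, 7 were higher and 2 lower, with a median of 0.41. Mpp6, a relative of Mpp4, had 4.77 (SE 0.17), the adhesion gene Cadm3 4.22 (SE 0.18) and Dtna, which encodes a dystrobrevin, 3.56 (SE 0.28). All of these passed the test of all genes, with adjusted p between 2.22e-10 and 0.0139.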

How the data were processed

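RNA-seq of 6 libraries and ATAC-seq of 8 libraries of sorted mouse photoreceptors were analysed. For RNA-seq, by the study's methods and the submitters' processing notes, the authors aligned 50-base reads of amplified, poly(A)-primed cDNA with STAR 2.4.2a and counted them with HTSeq 0.6.1p1. For ATAC-seq they used Bowtie2 2.2.3, SAMtools 1.3, Picard 1.121, MACS2 2.1.0, HOMER 4.8 and bedtools 2.24.0 on GRCm38 and kept short inserts. Both deposited tables hold raw counts, per gene and per 200 bp element. Reads without a gene, 41.3% to 49.2% of a library, were left out, and the deposited peak lists were not used. The RNA kit does not mark strand.

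Counts were scaled by TMM, filtered with filterByExpr and tested with glmQLFit and glmTreat of edgeR 4.0.16 against a log2 fold change of 1, over 12327 genes (Nrl-/- over rods) and over 51563 or 49364 elements (cones or Nrl-/- over rods), with Benjamini-Hochberg adjustment, at 0.05 for RNA and 0.1 for ATAC. SE is the standard error of the log2 fold change. The threshold and the joining of Nrl-/- photoreceptors with double-sorted green cones follow the study's methods. No test by permutation of 3 against 3 libraries can go below p = 0.1. Whether libraries were separate sorts of separate animals is stated only in part, so p-values measure the spread between libraries. Limits of 3 counts cover counting error only. Elements were given to the nearest RefSeq start of GRCm38.p6, on which sequences and motifs were also read. The scripts were tested on simulated data. The reported tests had no block. Deviations of same-numbered RNA libraries from their group means had r between 0.0226 and 0.127, against −0.118 to 0.0842 for other pairs. With so few libraries, these values cannot show whether libraries were paired.

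The 46 members and all gene lists were chosen with earlier results of these data known. Called members are given by library, others by range, except the most abundant of each role. From each pathway list up to 4 called genes with the largest change are named. Cacnb2 is named beyond this rule, as the only gene of its list that was called lower. Some genes of these lists and markers are not reported here. Promoter elements and the elements with the lowest adjusted p are given for called members. Alternatives were other scaling, no filter, DESeq2 1.42.0, a test against 0, a replicate block, leaving out each library, single-sorted green cones and a 50 kb window. For 1 single-sorted library the study's sample list gives another mouse line than the label.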

Additional observations from a re-analysis of the deposited data

How the results depend on the processing

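Members called higher numbered 9, between 8 and 10 when a library was left out, and 23 in the test against 0, where 3866 genes were higher and 3639 lower over all genes. The members called were not always the same: without Nrl-/- replicate 1, Syt1 was lost and Vamp2 and Syt4 were called. Members called lower numbered 1, 0 with library totals and with DESeq2, 7 in the test against 0, 2 with the replicate block and between 0 and 1 when a library was left out. Without rod replicate 1 or Nrl-/- replicate 3 the 1 lower call was Cabp4 in place of Rims2. The block, in which Cabp4 joined Rims2 (log2 fold change −1.23, adjusted p = 0.0489), changed no other call of a member. By the labels the libraries share only a number, and whether they were paired is not known. Elements more open in cones numbered between 25 and 62 when a library was left out. Elements less open in cones numbered 25 with processed reads as library sizes, 2 with DESeq2, 65 in the test against 0, 7 with single-sorted green cones and between 1 and 16 when a library was left out. Elements more open in Nrl-/- photoreceptors numbered 38 with DESeq2 and between 37 and 58 when a library was left out, and 59 with the replicate block. Elements less open there numbered 6 with DESeq2 and 96 in the test against 0. Among members that were not called, the sign turned for Cplx1 when Nrl-/- replicate 3 was left out (leave-one-out range −0.50 to 1.00), for Mpp4 with library totals (0.012), and for Vamp1 with RLE size factors (0.0085), library totals (0.060), DESeq2 (0.0099) and without rod replicate 3, Nrl-/- replicate 2 or Nrl-/- replicate 3 (leave-one-out range −0.24 to 0.15). Leaving out a rod ATAC library leaves 1 library in that group, which is then assumed to vary like the others. The causes were not tested. ATAC depth limits the elements, since 3 counts in the double-sorted green cones come to 2.33 and 2.70 CPM.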

Other observations

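The single-sorted green cones entered no main comparison. At the elements printed above they had 10.5 and 11.4 CPM and 7.33 and 10.5 CPM at Cplx2, 14.2 and 11.9 CPM at Cplx3, 10.99 and 20.1 CPM and 6.35 and 5.47 CPM at Nrxn3, and 67.9 and 68.4 CPM at the RIBEYE start of Ctbp2.

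Among the 30 elements that were more open in cones at the 9 members with higher RNA, CTAAGCC was found in 5, AGGTCA in 3, CTAATCC in 2, TAATTA in 2 and TGANTCA in 1, and TGCTGAC and CATATG in none. Over all 53204 elements these motifs were found in 5.61%, 14.9%, 7.61%, 4.71%, 6.28%, 3.98% and 2.50%, in the same order, on either strand and with any overlap between motifs counted. The 279 elements nearest to any member held CTAATCC in 32 cases, or 11.5%. They held CTAAGCC in 5.38%, AGGTCA in 17.9%, TAATTA in 4.66%, TGANTCA in 7.53%, TGCTGAC in 3.23% and CATATG in 2.15%. A match describes the letters of the window and no site, and no test was run.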
